A study of Mus musculus with 56 samples.

Results

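The genes described here are 40 mouse genes that build and drive the mitotic spindle and cytokinesis, chosen by symbol and measured in microglia, the resident macrophages of the brain. All 40 were found in each of the 3 deposited tables: a single-cell matrix of 27933 gene symbols, a bulk count table of 23420 and a set of FPKM files with 23356. By role, 11 of them are cyclins, kinases and their regulators, 5 belong to the spindle checkpoint and the anaphase-promoting complex, 4 to the chromosomal passenger complex and its partners, 7 to the centromere and kinetochore, and 10 are spindle motors, microtubule proteins and cytokinesis factors. The other 3 (Mki67, Top2a and Hmgb2) are chromatin proteins.

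The 56 samples were taken from cortex or from culture. Droplet 3' single-cell libraries of cortical cells from B6 mice, 2 per group, covered wild-type mice at postnatal day 28 (P28), wild-type mice at day 9 (P9), P9 mice labelled ST2 KO and P9 mice labelled ST2 Het, ST2 being the receptor of the cytokine IL-33 and the product of Il1rl1. Full-length bulk libraries came from primary cultures of wild-type B6 microglia taken at day 5 to 8 with CD11b beads and kept for 7 to 9 days in vitro with M-CSF and serum, 7 of them exposed to IL-33 (200 ng/ml, 3 h) and 7 kept in medium alone. The protocol for these cultures also names a pretreatment with GSK-J4, and the sample titles do not say which cultures had it. Bulk libraries of Tau-GFP plus (8) and Tau-GFP negative (8) microglia were sorted from the cortex of B6/129 carriers of the Mapttm1(EGFP)Klt allele, which puts GFP in neurons, so that GFP in a microglial cell is taken as a sign of uptake. Their age is day 10 in the sample labels, while the design text has day 9. The last bulk libraries were P9 cortical microglia of B6/C57 mice sorted by their TMRM signal, high (10) or low (8), TMRM being a dye taken up by polarised mitochondria. Neither the labels nor the protocols say that the samples of a group were separate animals or cultures, so the p-values below measure the spread between these samples, which may in part be technical.

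During mitosis, cyclin-dependent kinase 1 with its A- and B-type cyclins drives a cell into division, Aurora and Polo-like kinases and kinesin motors build the spindle, and the spindle checkpoint holds back Cdc20 and the anaphase-promoting complex until every kinetochore is attached. The chromosomal passenger complex, Prc1 and Ect2 then set up the midzone and the cleavage furrow. The transcripts of these genes are made mostly in late S, G2 and M phase and are kept off in resting cells by the DREAM complex, which with its activating counterpart binds promoters through the cell cycle homology region (CHR), often with CCAAT boxes for NF-Y nearby. Microglia divide in the tissue during the first postnatal weeks and slow down as the cortex matures.

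Because these genes moved together in the data below, the DNA before their transcription starts is shown for 6 of them: 5 with both kinds of motif and Mad2l1 with neither. RefSeq promoter windows (GRCm38.p6, 250 bases before the start to 50 after) matched 32 of the 40 genes; Pbk, Stmn1, Aurkb, Spc24, Tpx2, Kif20a, Cdca2 and Ccna2 had none. The 250 bases before each start are printed 5′ to 3′ along the gene, with capitals for the CHR core (TTTGAA or TTTAAA) and for CCAAT, each on either strand.
Cdc20, chr4:118437344-118437593, minus strand: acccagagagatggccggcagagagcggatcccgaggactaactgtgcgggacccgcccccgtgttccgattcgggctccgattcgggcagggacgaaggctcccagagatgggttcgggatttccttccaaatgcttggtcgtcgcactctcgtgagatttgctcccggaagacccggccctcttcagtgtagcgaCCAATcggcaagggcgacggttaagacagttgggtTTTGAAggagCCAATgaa
Plk1, chr7:122159185-122159434, plus strand: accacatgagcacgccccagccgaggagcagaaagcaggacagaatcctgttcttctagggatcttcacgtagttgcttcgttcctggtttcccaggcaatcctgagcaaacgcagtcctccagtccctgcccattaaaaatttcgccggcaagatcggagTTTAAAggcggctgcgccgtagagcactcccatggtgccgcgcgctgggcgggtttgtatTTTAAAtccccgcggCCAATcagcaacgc
Ccnb1, chr13:100786487-100786736, minus strand: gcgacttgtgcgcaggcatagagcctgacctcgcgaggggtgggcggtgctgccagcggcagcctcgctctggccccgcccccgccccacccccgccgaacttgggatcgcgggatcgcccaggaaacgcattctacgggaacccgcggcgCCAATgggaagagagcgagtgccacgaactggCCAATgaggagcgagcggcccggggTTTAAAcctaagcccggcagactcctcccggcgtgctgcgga
Ube2c, chr2:164769679-164769928, plus strand: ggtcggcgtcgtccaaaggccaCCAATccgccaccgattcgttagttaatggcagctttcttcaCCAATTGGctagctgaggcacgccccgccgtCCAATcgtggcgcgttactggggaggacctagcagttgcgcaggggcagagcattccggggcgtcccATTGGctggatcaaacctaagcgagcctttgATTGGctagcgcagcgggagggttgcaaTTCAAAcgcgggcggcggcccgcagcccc
Top2a, chr11:99024190-99024439, minus strand: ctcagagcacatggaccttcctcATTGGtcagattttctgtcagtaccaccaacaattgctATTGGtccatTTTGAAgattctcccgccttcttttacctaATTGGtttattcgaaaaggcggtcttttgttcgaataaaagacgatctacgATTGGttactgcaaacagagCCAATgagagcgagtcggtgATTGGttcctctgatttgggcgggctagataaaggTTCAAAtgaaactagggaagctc
Mad2l1, chr6:66534971-66535220, plus strand: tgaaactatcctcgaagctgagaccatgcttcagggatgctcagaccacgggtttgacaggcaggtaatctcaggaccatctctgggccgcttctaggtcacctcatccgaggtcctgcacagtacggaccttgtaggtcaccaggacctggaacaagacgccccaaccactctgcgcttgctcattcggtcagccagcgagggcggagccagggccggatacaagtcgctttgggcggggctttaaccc
A CHR core was present in 26 of the 32 windows of 300 bases (81.3%), against 27.6% of all 32851 promoter windows. Within 50 bases on either side of the start it was present in 23 of 32 (71.9%), against 8.28% of all windows. CCAAT was present in 27 of 32 (84.4%), against 37.4% of all windows, and 24 of 32 held both, against 10.7%. Letters of E2F sites (TTTCGCGC, TTTGGCGC, TTTCCCGC or TTTGCCGC, searched on both strands) were present in 2 of 32 (6.25%), Cdk1 and Cenpm, against 2.26% of all windows. Knstrn, Mad2l1 and Nusap1 held neither a CHR core nor CCAAT. The motif searches overlap, since CCAAT can be read on both strands at one place, as in the CCAATTGG of Ube2c, and a match in a window is only a match of letters.

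The single-cell matrix held 15507 barcodes, of which 15335 had at least 500 detected genes and under 10% mitochondrial UMIs. For the P28 and P9 wild-type libraries together it held 11424 barcodes, 11276 after that filter, and the design text states 9391 cells. The cells were clustered without 253 genes (the 40, 3 related cell cycle lists and 84 histone symbols), and 11 of 15 clusters (14569 cells) were microglia-like by a fixed list of 11 markers. The limit for that name, an average of 80% of cells with a UMI over the markers, was set after the values were seen; the lowest cluster kept had 83.0% and the highest one left out 64.4%. Each library gave between 656 and 2900 microglia-like cells, whose median UMI counts were 2296 and 2231.5 at P28, 3795 and 4037 at P9, 5940 and 5275.5 in ST2 KO, and 5181 and 5260 in ST2 Het. The P28 cells lay mostly in clusters 0 and 3, the P9 wild-type cells in cluster 1 and the ST2 KO and ST2 Het cells in cluster 2, so the microglia-like class is not made of the same clusters at the 2 ages. Cluster 1 was led by Cd79b and held no gene of the microglia list among its top 10. Of the barcode sequences, 137 occurred in more than 1 library. The doublet caller marked 56 cells and was not used. Bulk count libraries held 7709047 to 11826389 expected counts. The absolute depth of the FPKM files is unknown, and the steps between their low values put it within a 3.63-fold range.

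All 40 genes were lower in P28 than in P9 wild-type microglia, in the edgeR quasi-likelihood test with Benjamini-Hochberg adjustment over 11607 genes, of which 26.2% were called lower. The fit held all single-cell libraries with a mean for each group, so its estimate of the spread also came from the ST2 KO and ST2 Het libraries. The median log2 fold change of the 40 was -6.10 (adjusted p between 4.08e-12 and 4.14e-07), against 0.06 over all genes. Both P28 libraries lay below both P9 libraries for all 40, as they did for 36.4% of all genes. Summed over the 40 genes, the level was 167 and 171 CPM (UMIs of microglia-like cells scaled to library size, with TMM) at P28, against 3795 and 4045 CPM at P9. The raw UMIs behind these sums were 2536 at P28 and 77012 at P9.

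**Figure D1:**
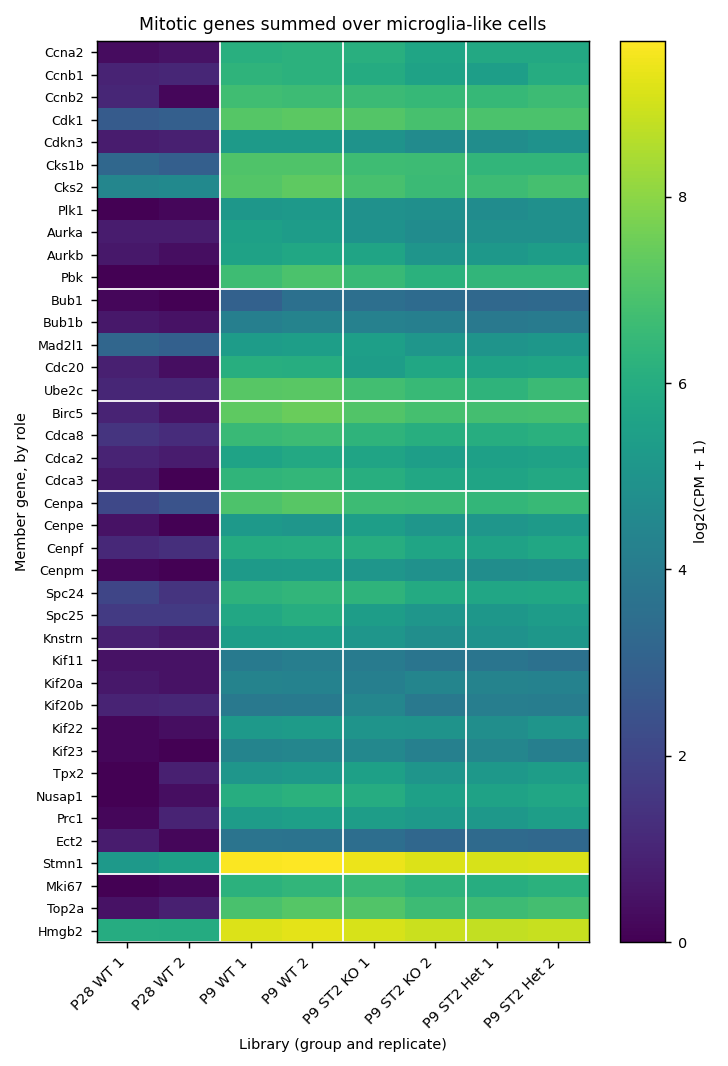
Levels of the 40 genes in the 8 single-cell libraries, as log2(CPM + 1) of the UMIs summed over microglia-like cells, genes in rows by role and libraries in columns by group. Dark colours are low values: the 2 P28 columns are darker than the 6 P9 columns for every gene, and Hmgb2, Stmn1 and Cks2 are the brightest rows at P28.

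Among the cyclins and kinases, Cdk1, the kinase that starts mitosis, had 5.82 and 6.57 CPM at P28, against 137 and 148 CPM at P9 (log2 fold change -4.52 ± 0.12, SE). Ccnb2, a B-type cyclin and partner of Cdk1, had 1.06 and 0.134 CPM at P28, against 105 and 98.04 CPM at P9 (-7.36 ± 0.22). Cks1b, a small adaptor of cyclin-dependent kinases, had 8.33 and 6.57 CPM at P28, against 127 and 128 CPM at P9 (-4.09 ± 0.09). The P28 libraries of all 3 lay far under the P9 libraries, with Cks1b keeping the most. Pbk, a mitotic kinase, had no UMI in either P28 library and 2161 UMIs at P9. Its ratio for P9 over P28 had a counting interval from 425 upward, and was 523 with a floor of 3 UMIs put in for the P28 group. Plk1, the Polo-like kinase, had 1 UMI at P28, against 693 at P9, a ratio of 503 for P9 over P28 (counting interval 89.9 to 19886). These intervals cover counting error only. Of the other members of the group, Ccna2, Ccnb1, Cdkn3, Aurka and Aurkb had 0.264 to 1.07 CPM at P28, and Cks2 20.7 and 22.8 CPM.

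In the checkpoint and the anaphase-promoting complex, Ube2c, the ubiquitin-conjugating enzyme of the complex, had 1.06 and 1.07 CPM at P28, against 143 and 146 CPM at P9 (-7.06 ± 0.17). Cdc20, its activator, had 0.793 and 0.268 CPM at P28, against 65.99 and 65.1 CPM at P9 (-6.90 ± 0.23). Bub1b, the checkpoint kinase BubR1, had 0.529 and 0.402 CPM at P28, against 16.8 and 18.8 CPM at P9 (-5.20 ± 0.26). All 3 were close to the floor at P28. Bub1 had 1 UMI at P28, against 174 at P9, a ratio of 126 for P9 over P28 (counting interval 22.4 to 5014). Mad2l1, the checkpoint protein Mad2, had 8.06 and 6.84 CPM at P28, against 39.5 and 41.5 CPM at P9 (-2.44 ± 0.14), the smallest fall of the 40 in this fit.

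Birc5 (survivin), a subunit of the chromosomal passenger complex, had 0.925 and 0.402 CPM at P28, against 155 and 174 CPM at P9 (-7.91 ± 0.18). Cdca8 (borealin), of the same complex, had 1.72 and 1.34 CPM at P28, against 93.7 and 98.4 CPM at P9 (-5.95 ± 0.15). Cdca2, which brings a phosphatase to chromatin at mitotic exit, had 0.925 and 0.671 CPM at P28, against 48.3 and 55.8 CPM at P9 (-5.99 ± 0.20). The P28 values of these 3 were under 2 CPM. Cenpa, the histone H3 variant of the centromere, had 3.30 and 4.56 CPM at P28, against 126 and 143 CPM at P9 (-5.09 ± 0.12). Cenpf, a kinetochore protein, had 1.19 and 1.48 CPM at P28, against 61.1 and 62.9 CPM at P9 (-5.52 ± 0.18). Cenpm had 1 UMI at P28, against 750 at P9, a ratio of 544 for P9 over P28 (counting interval 97.4 to 21520). Cenpa thus stayed more detectable at P28 than the other centromere genes, and Cenpe, the kinetochore kinesin, had 3 UMIs at P28, against 681 at P9, a ratio of 165 for P9 over P28 (counting interval 56.1 to 801).

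Stmn1, a protein that destabilises microtubules and had the highest level of the 40 at P9, had 35.9 and 43.9 CPM at P28, against 782 and 816 CPM at P9 (-4.32 ± 0.10). Nusap1, a microtubule-bundling protein, had 2 UMIs at P28, against 1332 at P9, a ratio of 483 for P9 over P28 (counting interval 133 to 3994). Kif22, a kinesin on chromosome arms, had 3 UMIs at P28, against 735 at P9, a ratio of 178 for P9 over P28 (counting interval 60.6 to 864). In this group Kif23, the midzone kinesin, had 1 UMI at P28, against 398 at P9, a ratio of 289 for P9 over P28 (counting interval 51.5 to 11433). Hmgb2, a DNA-bending protein of cycling cells, had 62.9 and 60.9 CPM at P28, against 579 and 614 CPM at P9 (-3.27 ± 0.08). Mki67 (Ki-67), the coat protein of mitotic chromosomes, had 1 UMI at P28, against 1529 at P9, a ratio of 1109 for P9 over P28 (counting interval 199 to 43842). Top2a, the topoisomerase that untangles chromosomes, had 0.396 and 0.805 CPM at P28, against 119 and 137 CPM at P9 (-7.69 ± 0.24). Hmgb2 was the member with the highest level at P28, while Mki67 and Top2a were almost undetected there.

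The lists of related genes moved the same way. Of 55 further mitotic genes, 51 were lower at P28 and 1 was higher, with a median of -4.42. The exception was Pttg1 (securin, the inhibitor of separase), with 57.8 to 59.7 CPM at P28, against 37.7 to 39.2 CPM at P9 (0.61 ± 0.08, adjusted p = 4.00e-05), and Kif18a, Espl1 and Ncaph did not pass the test; these 4 are named after their values were seen. All 44 DNA replication genes were lower (median -2.81): Tk1, the thymidine kinase, had 2.78 and 2.41 CPM at P28, against 114 and 118 CPM at P9, and Lig1, the replicative DNA ligase, 5.68 and 6.44 CPM at P28, against 74.3 and 76.8 CPM at P9. Of 30 cyclins, inhibitors and pocket proteins of G1 phase, 15 were lower and 6 higher (median -0.58). Over all 11607 genes tested, 3037 were called lower and 3189 higher at P28. E2f1, the transcription factor of S phase entry, had 0.793 and 0.671 CPM at P28, against 48.9 and 55.7 CPM at P9, and Cdkn1a, the inhibitor p21, 23.1 and 27.2 CPM at P28, against 217 and 207 CPM at P9. Beside these results, the P28 libraries also differed in other markers summed over microglia-like cells: the 8 markers of border-associated macrophages had 52.9 to 56.3 CPM at P28, against 407 to 430 CPM at P9, and 6 of 7 tested were lower. Microglia markers had 44722 to 45165 CPM at P28, against 28294 to 29471 CPM at P9, and 10 of 11 were higher. The neutrophil markers had 57.3 to 91.5 CPM at P28, against 2.07 to 5.66 CPM at P9. The part of these differences in the results was not tested, and the top 10 genes of cluster 4, which held no P28 cell, include Top2a, Pbk, Nusap1, Cdca2 and Ube2c.

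Per cell, at least 3 UMIs of the genes were found in a minority at P9 after thinning, and in most P9 cells without it. After each cell was thinned to 1000 UMIs, the share of microglia-like cells with at least 3 UMIs of the 40 genes was 0.142% and 0.174% at P28 (4 of 2819 and 5 of 2870 cells), against 28.1% and 29.5% at P9. The exact Clopper-Pearson 95% intervals were 0.0387% to 0.363% and 0.0566% to 0.406% at P28, and 26.4% to 29.8% and 27.6% to 31.4% at P9. In P9 mice labelled ST2 KO the shares were 27.4% and 23.5%, against 21.8% and 24.04% in ST2 Het, so that the lower ST2 KO library fell between the ST2 Het libraries. Their intervals were 24.1% to 31.03% and 20.6% to 26.6% in ST2 KO, and 19.5% to 24.2% and 21.7% to 26.5% in ST2 Het. Without thinning the shares were 1.66% and 2.03% at P28, 59.6% and 62.0% at P9, 71.6% and 64.3% in ST2 KO, and 57.7% and 66.6% in ST2 Het. Thinning left out 16 and 30 cells at P28 and at most 8 in any other library. Cells called border-associated macrophage-like were thinned the same way and pooled over libraries, at P9 over wild type, ST2 KO and ST2 Het. Their share was 1.03% at P28 (1 of 97 cells, interval 0.0261% to 5.61%, median 2928 UMIs). At P9 it was 6.30% (34 of 540 cells, median 3739.5 UMIs), against 26.5% of the P9 microglia-like cells pooled the same way (median 4526.5 UMIs). The P28 share of microglia-like cells was within the P28 interval of these cells, which rests on 1 cell and would hold almost any small share. Whether the UMIs at P28 came from expression or from free RNA was not tested. With 2 libraries a group no test of these shares was made.

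**Figure D2:**
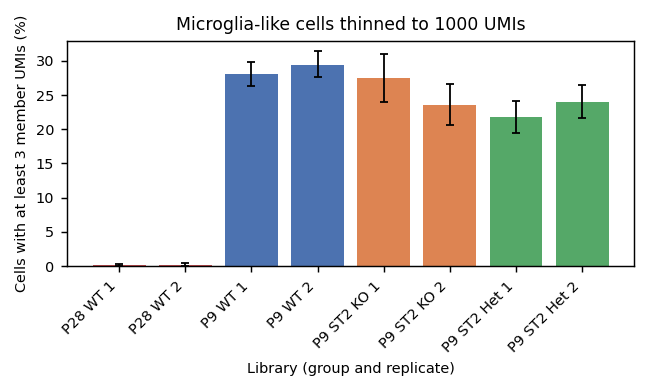
Share of microglia-like cells with at least 3 UMIs of the 40 genes after thinning to 1000 UMIs (vertical axis, percent), 1 bar per library by group, with exact 95% intervals as whiskers that cover counting error only. The P28 bars stand at 0.142% and 0.174% and the 6 P9 bars between 21.8% and 29.5%.

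The members were not equally confined to those cells. A gene's own UMIs were left out when its cells were picked, so the set of cells differs by gene. The set is smaller for genes with many UMIs such as Stmn1 and Hmgb2, which can lower their values below. The size of this effect was not tested. In the P9 wild-type libraries, 97.7% and 100.0% of the thinned UMIs of Kif20a, a kinesin of the central spindle, lay in cells that held at least 3 UMIs of the other 39 genes. For Ccna2 (cyclin A) the values were 95.9% and 97.2%, for Cdca2 92.0% and 98.1%, and for Plk1 97.0% and 92.2%. These 4 had the highest means in the wild-type P9 libraries, with Nusap1 next at 93.6%, and Kif20a had only 83 thinned UMIs. In ST2 KO and ST2 Het the means were 91.7% and 87.2% for Kif20a and 92.4% and 92.3% for Ccna2. They were 82.9% and 94.9% for Cdca2, and 97.1% and 95.3% for Plk1. At the other end in the wild-type P9 libraries, the values were 56.3% and 60.4% for Stmn1, 78.5% and 69.1% for Mad2l1, 72.2% and 77.3% for Hmgb2, and 76.6% and 76.2% for Cks1b. Stmn1 had a UMI in 38.1% and 39.1% of all P9 wild-type microglia-like cells, and in 76.5% and 77.9% of those that held 3 UMIs of the others. At P28, 211 thinned UMIs of Stmn1 were left, of which 1.98% and 0.00% lay in such cells, and for Hmgb2 it was 0.55% and 0.00% of 352. None of the 116 thinned UMIs of Cks2 and the 46 of Mad2l1 at P28 lay in such cells. Nearly all P28 UMIs of these 4 genes lay in cells without 3 UMIs of the others. Cells with them were only 0.142% and 0.174% of the P28 cells when Cks2 or Mad2l1 was the gene counted. UMIs of almost any gene would lie outside so few cells, so these P28 values do not set the 4 genes apart. Stmn1 and Hmgb2 are also made in cells outside mitosis, and Cks1b and Cks2 from S phase on, as background.

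**Figure D3:**
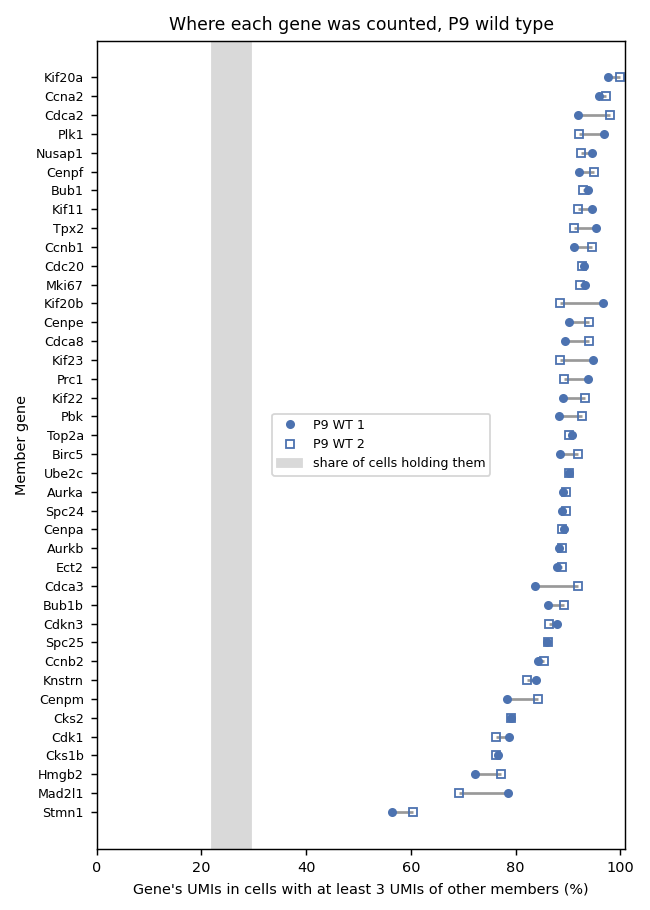
For each of the 40 genes (rows), the percent of its thinned UMIs in P9 wild-type microglia-like cells that lay in cells holding at least 3 UMIs of the other 39 genes, 1 point per library. The grey band is the share of all cells that hold them; Kif20a lies at the high end (97.7% and 100.0%) and Stmn1 at the low end (56.3% and 60.4%), and all points lie to the right of the band.

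The members' levels differed among the clusters that held them, which is given as a description, since a cluster is defined by the genes of its cells. Of the 40 genes, 12 averaged higher and 28 lower in cluster 9 than in cluster 4. In P9 wild-type cells of cluster 9, Ccnb2 averaged 517 CPM, Cenpa 619 CPM and Cdc20 343 CPM over the 2 libraries, while Cdk1 averaged 160 CPM and Aurkb 44.3 CPM. In cluster 4, Cdk1 averaged 445 CPM, Aurkb 186 CPM and Cdc20 186 CPM. Cluster 11 had the highest Cks2 (1120 CPM), Cdk1 (660 CPM) and Aurka (385 CPM), from 21 and 20 cells. In cluster 1, the largest for both P9 wild-type libraries, Cdk1 averaged 42.3 CPM, Aurkb 7.37 CPM and Cdc20 7.44 CPM. The cells of cluster 9 had fewer UMIs than the median of their libraries (a ratio of 0.761), and those of cluster 11 had more (1.55).

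In mice labelled ST2 KO, none of the 40 genes passed the edgeR test against ST2 Het (0.620% of 11607 genes were called in either direction). The fit was again that of all single-cell libraries, wild-type ones included. Il1rl1 itself, the gene that is knocked out, had 31 and 28 UMIs (7.54 and 6.07 CPM) in ST2 KO, against 37 and 46 UMIs (5.40 and 6.50 CPM) in ST2 Het. The labels do not say which part of the gene is deleted, and 3' tags outside it check nothing, so the genotype of the libraries labelled ST2 KO was not checked by their RNA. The median log2 fold change of the 40 genes was 0.08 (range -0.11 to 0.38), against -0.00 over all genes, with 33 values above 0 and 7 below. Spc24, Hmgb2, Mki67 and Cks1b had an unadjusted p under 0.05, as did 1175 of all genes, and DESeq2 called none of the 40. Both libraries labelled ST2 KO lay above both ST2 Het libraries for 11 of the 40 genes, as they did for 18.9% of all genes, and below for 0 of 40, against 19.5% of all genes.

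The 4 members with the highest mean in ST2 KO show the spread. Stmn1 had 664 and 568 CPM in ST2 KO, against 547 and 562 CPM in ST2 Het (0.15 ± 0.08, adjusted p = 0.567). Hmgb2 had 549 and 476 CPM in ST2 KO, against 440.1 and 468 CPM in ST2 Het (0.17 ± 0.07, adjusted p = 0.412). Cdk1 had 135 and 114 CPM in ST2 KO, against 120.3 and 119.8 CPM in ST2 Het (0.05 ± 0.08, adjusted p = 0.888). In each of these the first library labelled ST2 KO was the highest of the 4, and in Cdk1 the second was the lowest. Birc5 had 130.4 and 113 CPM in ST2 KO, against 109.8 and 112 CPM in ST2 Het (0.13 ± 0.09, adjusted p = 0.67). The first ST2 KO and first ST2 Het libraries both carry the word redo in their barcode names. With the 4 libraries alone and the replicate number as a block, Cks1b, Mki67 and Spc24 passed, all higher in ST2 KO (log2 fold changes of 0.28, 0.30 and 0.38, adjusted p of 0.0448, 0.0486 and 0.0110). Without the first ST2 KO library the estimate for Cdk1 was -0.08, and without the second, Spc24 (a subunit of the Ndc80 complex of the kinetochore) passed the test (0.58, adjusted p = 0.0277). Summed over the 40 genes the level was 3435 and 2909 CPM in ST2 KO, against 2802 and 3004 CPM in ST2 Het.

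None of 55 further mitotic genes passed (median 0.12). Of 44 DNA replication genes, Pcna, the sliding clamp of DNA polymerase, was the only one called: it had 206 and 156 CPM in ST2 KO, against 125 and 115 CPM in ST2 Het (0.60 ± 0.11, adjusted p = 0.0296), with an adjusted p between 0.0632 and 0.25 under 4 of the other settings. Other settings called more of this list: 6 higher with no filter on low counts, 6 higher with only the 4 libraries and a replicate block, and 9 higher without the second ST2 KO library. The replication list had a median of 0.23, and 23 of its 44 genes were higher in both libraries labelled ST2 KO than in both ST2 Het libraries, against 18.9% of all genes. Of 30 G1 genes, Btg2, an antiproliferative factor, was the only one called: it had 160.0 and 155 CPM in ST2 KO, against 206 and 224 CPM in ST2 Het (-0.45 ± 0.06, adjusted p = 0.00418). Beside this, endothelial markers summed to 67.5 to 73.3 CPM in ST2 KO, against 40.4 to 44.5 CPM in ST2 Het, and mural cell markers to 31.2 to 34.1 CPM in ST2 KO, against 10.98 to 18.1 CPM in ST2 Het; their part was not tested. The wild-type P9 libraries carry another date in their names than the ST2 libraries. For 33 of the 40 genes both ST2 Het libraries lay below both wild-type P9 libraries, as for 27.8% of all genes, and genotype and date cannot be told apart there.

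In culture, IL-33 came with lower values of most members, few of which passed the test. Of 39 genes tested (Cdkn3 was below the expression filter), 2 were lower with IL-33 than in medium and none was higher by edgeR, where 3.54% of 10815 genes were called lower and 4.22% higher. The median log2 fold change was -0.34, against -0.01 over all genes, and 36 of 39 values were below 0. An unadjusted p under 0.05 was found for 11 of the 39 genes, and for 2033 of all genes. The libraries of each of the 40 genes overlapped between the groups, as did those of all but 1.40% (lower) and 2.15% (higher) of genes. In bulk samples, fewer cells of a type and less RNA per cell cannot be told apart, here and in the sorted cells below.

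For each bulk group the lowest, median and highest library are given in that order. Ccna2, cyclin A, had 7.66, 9.06 and 13.6 CPM with IL-33, against 8.35, 15.5 and 21 CPM in medium (log2 fold change -0.62 ± 0.18, adjusted p = 0.0334). Mad2l1, of the spindle checkpoint, had 8.04, 9.36 and 13.1 CPM with IL-33, against 11.3, 13.03 and 17.5 CPM in medium (-0.46 ± 0.12, adjusted p = 0.0205). Both medians were lower with IL-33, and the highest IL-33 library of each lay above the lowest medium library. The call of Ccna2 lay near the threshold. It was lost in 9 of the 14 fits that left out 1 library each, with an adjusted p of 0.0522 to 0.0741. It was kept with DESeq2 (adjusted p = 0.00808) and with the replicate block (adjusted p = 0.00331). Among the 14 fits, the call of Mad2l1 was lost only without medium library 6 (adjusted p = 0.0539). The largest estimate was that of Kif11, the motor that pushes spindle poles apart, with 0.792, 2.80 and 3.68 CPM with IL-33, against 1.08, 5.03 and 6.28 CPM in medium (-0.88 ± 0.31, adjusted p = 0.106). Hmgb2 (0.07 ± 0.11), Cks2 (0.13 ± 0.12) and Bub1 (0.01 ± 0.28) were the 3 members with estimates above 0. These 4 are named after their values were seen, and none of them passed.

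By role, the medians were -0.33 for the cyclins and kinases, -0.46 for the checkpoint and the anaphase-promoting complex, -0.41 for the passenger complex and its partners, -0.27 for the centromere and kinetochore, -0.37 for motors, microtubule proteins and cytokinesis and -0.26 for chromatin. Of 47 further mitotic genes, 2 were lower and 2 higher (median -0.24). Racgap1, the midzone partner of Kif23 and Ect2, had 7.75, 10.4 and 15.1 CPM with IL-33, against 14.7, 17.6 and 24.5 CPM in medium (-0.76 ± 0.15, adjusted p = 0.00185). H2afz, a histone variant, had 328, 339.8 and 374 CPM with IL-33, against 374, 396 and 437 CPM in medium (-0.21 ± 0.04, adjusted p = 0.00196), and its groups did not overlap. The tubulin genes Tubb4b and Tuba1b were higher: Tubb4b had 110.2, 116 and 129 CPM with IL-33, against 80.4, 89.8 and 109 CPM in medium (0.30 ± 0.06, adjusted p = 0.00374), and Tuba1b 571, 598 and 650.1 CPM with IL-33, against 516, 523 and 587 CPM in medium (0.14 ± 0.04, adjusted p = 0.0385). The call of Tuba1b was lost in 8 of the 14 fits that left out 1 library each (adjusted p of 0.0526 to 0.0858). Of 44 replication genes only Rfc3, a clamp loader subunit, was called, lower (-0.36 ± 0.08, adjusted p = 0.00736; list median -0.09), and of 28 G1 genes only Lin37, a subunit of the DREAM complex, lower (-0.45 ± 0.12, adjusted p = 0.0191), a call lost without medium library 1 (adjusted p = 0.0529). Microglia markers summed to 8115 to 9120 CPM with IL-33, against 8273 to 9531 CPM in medium, and 4 of 10 tested were called lower and none higher; their part in the result was not tested.

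Tau-GFP plus microglia had more of the mitotic transcripts than Tau-GFP negative microglia. By edgeR 39 of the 40 genes were higher and none was lower, where 20.7% of 12138 genes were called higher and 16.9% lower. The median log2 fold change was 0.78 (range 0.34 to 1.12), against 0.01 over all genes. For 18 of the 40 genes every Tau-GFP plus library lay above every Tau-GFP negative one, as for 6.82% of all genes. The gene that did not pass was Cdca2, with 60.6, 71.2 and 104 CPM in Tau-GFP plus libraries, against 44.3, 58.7 and 92.4 CPM in Tau-GFP negative libraries (0.34 ± 0.14, adjusted p = 0.061). Summed over the 40 genes the level ran from 3102 to 4794 CPM in Tau-GFP plus libraries, against 1920 to 2802 CPM in Tau-GFP negative libraries.

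**Figure D4:**
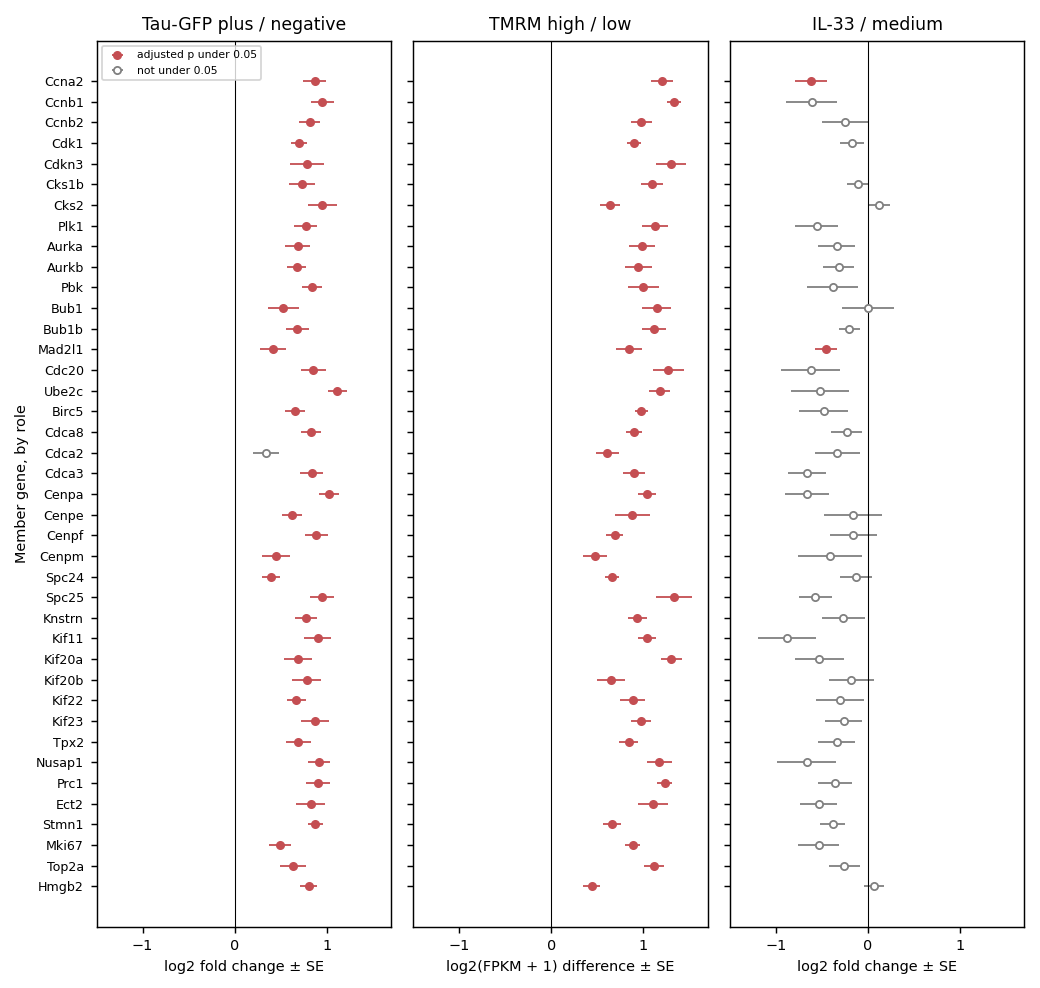
Log2 fold changes of the 40 genes (rows, by role) with their standard errors in the 3 bulk comparisons, from left to right Tau-GFP plus over negative, TMRM high over low on the log2(FPKM + 1) scale, and IL-33 over medium. Filled points passed the test: 39 of 40 above 0 for Tau-GFP, 40 of 40 above 0 for TMRM and 2 of 39 below 0 for IL-33.

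Ube2c, the enzyme of the anaphase-promoting complex, had the largest fold change, with 86.3, 111 and 137 CPM in Tau-GFP plus libraries, against 43.1, 49.5 and 61.1 CPM in Tau-GFP negative libraries (1.12 ± 0.11, adjusted p = 3.97e-07). Its activator Cdc20 had 66.2, 107 and 137 CPM in Tau-GFP plus libraries, against 45.7, 54.8 and 80.4 CPM in Tau-GFP negative libraries (0.85 ± 0.13). Bub1b had 99.01, 121 and 148 CPM in Tau-GFP plus libraries, against 55.6, 73.5 and 108 CPM in Tau-GFP negative libraries (0.68 ± 0.13). The groups were apart for Ube2c and overlapped for Cdc20 and Bub1b. Ccnb1, cyclin B1, had 109, 158 and 198 CPM in Tau-GFP plus libraries, against 64.01, 78.6 and 101.3 CPM in Tau-GFP negative libraries (0.95 ± 0.12), its partner Cdk1 129, 136 and 167 CPM in Tau-GFP plus libraries, against 68.3, 89.9 and 105 CPM in Tau-GFP negative libraries (0.70 ± 0.09), and the kinase Pbk 98.5, 118 and 154 CPM in Tau-GFP plus libraries, against 51.3, 70.5 and 84.5 CPM in Tau-GFP negative libraries (0.84 ± 0.11). None of these 3 overlapped between the groups, and their adjusted p-values were at or below 1.39e-05.

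The passenger protein Cdca8 had 57.1, 83.5 and 103 CPM in Tau-GFP plus libraries, against 40.99, 45.5 and 56.5 CPM in Tau-GFP negative libraries (0.83 ± 0.11). Cdca3, which helps to degrade a brake on Cdk1, had 44.3, 58.3 and 74.8 CPM in Tau-GFP plus libraries, against 25.97, 33.8 and 41.3 CPM in Tau-GFP negative libraries (0.84 ± 0.13). Birc5 had 77.3, 95.5 and 112 CPM in Tau-GFP plus libraries, against 43.7, 59.8 and 83.4 CPM in Tau-GFP negative libraries (0.66 ± 0.11). Cdca8 and Cdca3 were apart and Birc5 overlapped. Cenpa had 74.7, 83.3 and 101.1 CPM in Tau-GFP plus libraries, against 32.5, 40.7 and 58.02 CPM in Tau-GFP negative libraries (1.02 ± 0.11), Cenpf 53.9, 69.3 and 91.7 CPM in Tau-GFP plus libraries, against 27.96, 40.6 and 44.2 CPM in Tau-GFP negative libraries (0.88 ± 0.12), and Spc25, of the Ndc80 complex, 32.4, 46.7 and 61.8 CPM in Tau-GFP plus libraries, against 18.8, 25.3 and 29.5 CPM in Tau-GFP negative libraries (0.95 ± 0.13). All Tau-GFP plus libraries exceeded all Tau-GFP negative ones in these 3 centromere and kinetochore genes.

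The microtubule protein Stmn1 had 196, 256 and 291 CPM in Tau-GFP plus libraries, against 115, 139 and 155 CPM in Tau-GFP negative libraries (0.88 ± 0.09, adjusted p = 5.01e-07). Nusap1 had 92.6, 109 and 134 CPM in Tau-GFP plus libraries, against 41.4, 57.7 and 82.03 CPM in Tau-GFP negative libraries (0.91 ± 0.12). Prc1, which crosslinks the microtubules of the midzone, had 79.5, 129.5 and 174 CPM in Tau-GFP plus libraries, against 54.4, 65.7 and 83.6 CPM in Tau-GFP negative libraries (0.91 ± 0.13). Of these, Prc1 overlapped by 1 Tau-GFP plus library. Hmgb2 had 181, 244 and 289 CPM in Tau-GFP plus libraries, against 115, 135 and 164 CPM in Tau-GFP negative libraries (0.80 ± 0.09), Top2a 253, 319.6 and 426 CPM in Tau-GFP plus libraries, against 145, 191 and 315 CPM in Tau-GFP negative libraries (0.64 ± 0.14) and Mki67 180.0, 222 and 311 CPM in Tau-GFP plus libraries, against 119.9, 166 and 224 CPM in Tau-GFP negative libraries (0.49 ± 0.12). Hmgb2 was apart, while Top2a and Mki67 overlapped and had fold changes below the median of the 40.

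The related lists differed in how many genes passed. Of 54 further mitotic genes 43 were higher and none lower (median 0.61), with Cdc25b, the phosphatase that activates Cdk1, at 34.2, 43.7 and 71.99 CPM in Tau-GFP plus libraries, against 14.3, 17.2 and 25.05 CPM in Tau-GFP negative libraries (1.38 ± 0.15) and Tubb4b at 191, 237 and 296 CPM in Tau-GFP plus libraries, against 117, 134 and 147 CPM in Tau-GFP negative libraries (0.85 ± 0.09). Of 44 replication genes 7 were higher and 2 (Mcm3 and Cdt1, of replication licensing) lower, with a median of 0.08. Without the libraries with high endothelial markers described below, 2 were higher and 1 lower (median 0.01). Rrm1, a ribonucleotide reductase subunit, had 193, 218 and 244 CPM in Tau-GFP plus libraries, against 129, 161 and 193 CPM in Tau-GFP negative libraries (0.42 ± 0.07, adjusted p = 2.29e-04). Of 29 G1 genes 7 were higher and 4 lower. Ccnd2, cyclin D2, had 42.6, 66.4 and 141 CPM in Tau-GFP plus libraries, against 0.380, 2.78 and 5.59 CPM in Tau-GFP negative libraries (4.79 ± 0.34, adjusted p = 2.06e-08), groups that lay far apart, and Cdk4, its kinase, had 196, 208 and 225 CPM in Tau-GFP plus libraries, against 147, 159 and 187 CPM in Tau-GFP negative libraries (0.36 ± 0.06). Ccnd2 was also among the top 10 genes of cluster 13, a single-cell cluster that was led by Cldn5 and lay outside the microglia-like class. The part of other cell types in its bulk values was not tested. Cdk6, the other kinase of cyclin D, was lower, with 41.4, 57.2 and 66.1 CPM in Tau-GFP plus libraries, against 74.9, 80.8 and 89.2 CPM in Tau-GFP negative libraries (-0.56 ± 0.09, adjusted p = 7.15e-05).

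Markers of other cell types moved with the Tau-GFP sort. The 8 border-associated macrophage markers summed to 3199 to 8573 CPM in Tau-GFP plus libraries, against 577 to 883 CPM in Tau-GFP negative libraries, and all 8 were called higher. The 5 neural progenitor and neuroblast markers summed to 77.4 to 272 CPM in Tau-GFP plus, against 1.33 to 10.6 CPM in Tau-GFP negative libraries, the 5 neuron markers to 44.0 to 133 CPM in Tau-GFP plus, against 2.61 to 8.41 CPM in Tau-GFP negative libraries, and the 6 mural markers to 49.1 to 354 CPM in Tau-GFP plus, against 6.59 to 44.1 CPM in Tau-GFP negative libraries. Microglia markers summed to 30729 to 46611 CPM in Tau-GFP plus libraries, against 57405 to 71025 CPM in Tau-GFP negative libraries, and all 11 were lower. The oligodendrocyte precursor markers summed to 25.4 to 98.7 CPM in Tau-GFP plus, against 0.203 to 10.4 CPM in Tau-GFP negative libraries. Of those tested, 2 of 2 were called higher, as were 4 of 5 astrocyte markers. Going the other way, 1 of 4 tested oligodendrocyte markers and the 1 tested B cell marker were lower. Neural progenitors and other cell types of the pup brain divide too, and their part in the higher mitotic values was not tested. Endothelial markers were high in some libraries of both groups (up to 3159 CPM in Tau-GFP plus library 3 and 428 CPM among the Tau-GFP negative ones). Without the libraries over 250 CPM, which left 4 Tau-GFP plus and 6 Tau-GFP negative libraries, 36 of the 40 genes were higher (median 0.74), and Cdca2, Mad2l1, Bub1 and Cenpm did not pass.

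TMRM high microglia also had more of the mitotic transcripts than TMRM low microglia. All 40 genes were higher in the limma test on log2(FPKM + 1), where 20.4% of 10714 genes were called higher. The median difference of the 40 was 0.98 on that scale (range 0.44 to 1.33), against 0.06 over all genes. For 30 of the 40 genes every TMRM high library lay above every TMRM low one, as for 5.17% of all genes. The sums over the 40 genes ran from 1309 to 1634 FPKM in TMRM high libraries, against 642 to 938 FPKM in TMRM low libraries. Of all genes 2189 were higher and 1054 lower, and with quantile normalisation 1426 were higher and 1375 lower, while the 40 genes were all called higher under both, with a median of 0.87 under quantile normalisation.

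**Figure D5:**
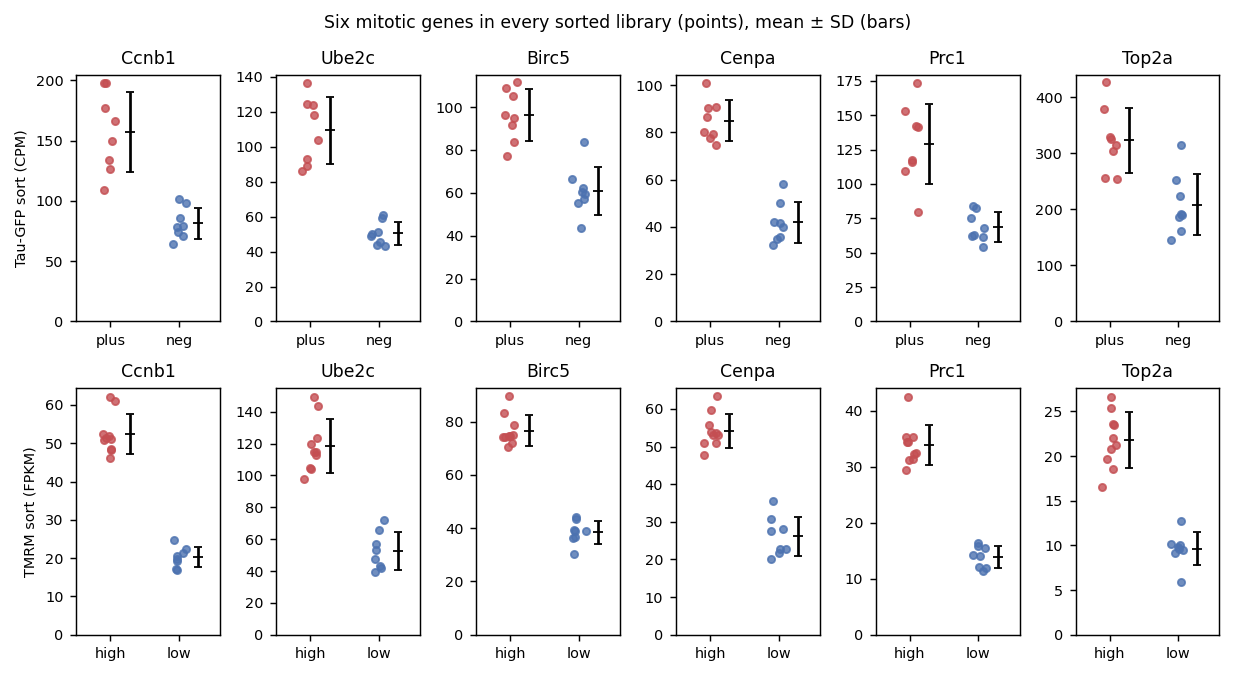
Levels of 6 members in every sorted bulk library, 1 point per library, with the mean and SD as a bar beside the points: CPM in Tau-GFP plus and negative libraries (upper row) and FPKM in TMRM high and low libraries (lower row). For Ccnb1 the TMRM high libraries lie at 46.1 to 62.2 FPKM, above all TMRM low libraries at 16.9 to 24.7 FPKM.

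Ccnb1 had the largest difference on the log2(FPKM + 1) scale, with 46.1, 51.2 and 62.2 FPKM in TMRM high libraries, against 16.9, 20.2 and 24.7 FPKM in TMRM low libraries (difference 1.33 ± 0.08, adjusted p = 1.13e-10). Cdk1 had 33.99, 37.97 and 42.6 FPKM in TMRM high libraries, against 15.9, 19.9 and 25.7 FPKM in TMRM low libraries (0.90 ± 0.08). Ccna2 had 33.5, 40.5 and 48.00 FPKM in TMRM high libraries, against 10.4, 16.4 and 24.8 FPKM in TMRM low libraries (1.20 ± 0.12). In all 3 the lowest TMRM high library exceeded the highest TMRM low library. Ube2c had 97.9, 115 and 149 FPKM in TMRM high libraries, against 39.6, 50.3 and 72.04 FPKM in TMRM low libraries (1.18 ± 0.11), Cdc20 51.4, 58.5 and 76.7 FPKM in TMRM high libraries, against 13.7, 26.7 and 40.2 FPKM in TMRM low libraries (1.27 ± 0.17) and Bub1b 17.7, 21.3 and 24.5 FPKM in TMRM high libraries, against 6.02, 9.46 and 14.4 FPKM in TMRM low libraries (1.11 ± 0.13). None of these 3 overlapped either.

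Birc5 had 70.6, 74.5 and 89.7 FPKM in TMRM high libraries, against 30.2, 38.96 and 44.1 FPKM in TMRM low libraries (0.98 ± 0.07, adjusted p = 1.97e-09). Cdca8 had 44.05, 47.7 and 55.4 FPKM in TMRM high libraries, against 18.3, 26.01 and 31.3 FPKM in TMRM low libraries (0.90 ± 0.09), and Cdca3 26.3, 34.8 and 38.5 FPKM in TMRM high libraries, against 11.5, 16.7 and 24.8 FPKM in TMRM low libraries (0.90 ± 0.12). The groups were apart for these 3 as well. Cenpa had 47.8, 53.3 and 63.4 FPKM in TMRM high libraries, against 20.1, 25.3 and 35.5 FPKM in TMRM low libraries (1.04 ± 0.09), Knstrn (kinastrin, of the spindle and kinetochore) 10.3, 13.3 and 14.3 FPKM in TMRM high libraries, against 4.40, 6.35 and 8.73 FPKM in TMRM low libraries (0.94 ± 0.10), and Spc24 28.2, 31.5 and 39.1 FPKM in TMRM high libraries, against 17.6, 19.1 and 25.3 FPKM in TMRM low libraries (0.66 ± 0.08). Spc24 moved least of the 3, without overlap.

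Prc1 had 29.3, 33.4 and 42.5 FPKM in TMRM high libraries, against 11.3, 14.1 and 16.4 FPKM in TMRM low libraries (1.23 ± 0.08, adjusted p = 8.72e-10). Kif20a had 14.6, 18.3 and 20.3 FPKM in TMRM high libraries, against 4.04, 6.27 and 9.48 FPKM in TMRM low libraries (1.30 ± 0.11), and Kif11 4.10, 5.79 and 7.00 FPKM in TMRM high libraries, against 1.5, 2.28 and 2.57 FPKM in TMRM low libraries (1.04 ± 0.10). All 3 were apart, at levels per length that were higher for Prc1 than for the kinesins. Mki67 had 7.96, 10.1 and 11.9 FPKM in TMRM high libraries, against 3.79, 4.76 and 5.64 FPKM in TMRM low libraries (0.88 ± 0.09), Top2a 16.6, 21.7 and 26.6 FPKM in TMRM high libraries, against 5.93, 9.73 and 12.8 FPKM in TMRM low libraries (1.11 ± 0.11) and Hmgb2 45.3, 52.9 and 68.97 FPKM in TMRM high libraries, against 33.2, 40.8 and 51.4 FPKM in TMRM low libraries (0.44 ± 0.09, adjusted p = 0.00106). Hmgb2 had the smallest difference of the 40 and its groups overlapped. Stmn1, the member with the highest FPKM, had 152, 194 and 218 FPKM in TMRM high libraries, against 87.1, 122 and 164 FPKM in TMRM low libraries (0.66 ± 0.09).

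Of 50 further mitotic genes 45 were higher and none lower (median 0.79), with Melk, a kinase of mitotic cells, at 9.59, 10.6 and 12.3 FPKM in TMRM high libraries, against 3.01, 4.37 and 6.80 FPKM in TMRM low libraries (1.08 ± 0.11). Of 44 replication genes 21 were higher and none lower (median 0.29), against 10 with quantile normalisation (median 0.16) and 13 with a replicate block. The 21 included Rrm1, at 33.1, 39.5 and 43.01 FPKM in TMRM high libraries, against 14.9, 22.05 and 27.4 FPKM in TMRM low libraries (0.86 ± 0.10) and Mcm3, of the replicative helicase, at 76.3, 86.4 and 94.6 FPKM in TMRM high libraries, against 56.1, 66.5 and 76.00 FPKM in TMRM low libraries (0.36 ± 0.07). With quantile normalisation Mcm3 did not pass (adjusted p = 0.146). Of 27 G1 genes 7 were higher and none lower (median 0.11), 4 without the libraries with high choroid plexus markers and 3 with no filter on low values. Among the 7 were Cdk4, with 129, 146 and 162 FPKM in TMRM high libraries, against 98.6, 107 and 136 FPKM in TMRM low libraries (0.44 ± 0.06, adjusted p = 2.09e-05), and Ccng1, with 9.48, 11.4 and 12.8 FPKM in TMRM high libraries, against 3.70, 6.52 and 8.16 FPKM in TMRM low libraries (0.70 ± 0.11, adjusted p = 4.34e-05), and Cdk4 did not pass with quantile normalisation (adjusted p = 0.0658).

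Neutrophil and choroid plexus markers went with the TMRM sort. The 6 neutrophil markers summed to 0.184 to 782 FPKM in TMRM high libraries, against 643 to 2308 FPKM in TMRM low libraries, and all 6 were lower. Choroid plexus markers summed to 30.5 to 117 FPKM in TMRM high libraries, against 116 to 34087 FPKM in TMRM low libraries, and were highest in TMRM low libraries 2 and 7. Without these 2 libraries all 40 genes were still higher, with a median of 0.95. Border-associated macrophage markers summed to 152 to 243 FPKM in TMRM high libraries, against 65.8 to 154 FPKM in TMRM low libraries, and 6 of 8 were higher. Microglia markers summed to 11206 to 12653 FPKM in TMRM high libraries, against 11739 to 13330 FPKM in TMRM low libraries, and 6 of 11 were lower. Monocyte markers (3 of 3 tested lower) summed to 4.3 to 17.4 FPKM in TMRM high libraries, against 17.3 to 60.8 FPKM in TMRM low libraries, and neuron markers (2 of 2 tested lower) to 0.88 to 2.71 FPKM in TMRM high libraries, against 3.53 to 13.9 FPKM in TMRM low libraries. The part of the neutrophil, macrophage, monocyte, neuron and microglia markers in the result was not tested.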

How the data were processed

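Single-cell libraries were deposited as raw UMI counts per gene and cell. The cultured and Tau-GFP bulk libraries were deposited as RSEM expected counts, and the TMRM libraries as FPKM values by the authors. Bowtie2, RSEM, Cell Ranger, TopHat2 2.0.10, Cufflinks 2.0.2, DESeq2 and the build mm10 are named in the submitters' processing notes, without a role for each. Of 35 columns of the count table, 5 were not used.

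Counts were summed over microglia-like cells per library (scanpy 1.11.5). Summed and rounded expected counts were tested with edgeR 4.0.16 (TMM scaling, expression filter, quasi-likelihood), and log2(FPKM + 1) with limma 3.58.1 at a mean FPKM of at least 1, with Benjamini-Hochberg adjustment over all genes tested and a threshold of 0.05. Of the expected count values 25.3% were not whole. Fold changes on the log2(FPKM + 1) scale understate the change of low genes. DESeq2 1.42.0, other filters, other scalings, a replicate block and leaving out each library were alternatives. The fits were tested on simulated data. Per comparison, per-library values go to up to 3 called members per role with the smallest adjusted p, or, with none called, to the 4 with the highest mean; from each list up to 4 called genes; other members with values were chosen after these were seen. The members and lists were chosen with earlier results of these data known.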

Additional observations from a re-analysis of the deposited data

Results flagged for a closer look

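Of 76 sets of values tested (1 gene in 1 bulk group of 7 to 10 libraries), 2 held a library far from the others, and chance gives about 1 in 20. Kif11, the motor of spindle poles, had 1.5 FPKM in TMRM low library 3, where the nearest library had 2.11 and the highest 2.57 FPKM. By the steps between low values, TMRM low library 3 was the shallowest, at 0.275 of the depth of TMRM low library 1. The part of depth in this value was not tested. Prc1, the microtubule crosslinker of the midzone, had 42.5 FPKM in TMRM high library 9, where the nearest library had 35.4 and the lowest 29.3 FPKM.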

How the results depend on the processing

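All 40 genes were lower at P28 and higher in TMRM high libraries under every alternative run. For Tau-GFP 36 to 40 were higher, 37 with the replicate block. Against ST2 Het, 1 member (Spc24) was called with no filter on low counts and 3 (Cks1b, Mki67, Spc24) with only the 4 libraries compared and the replicate block, and leaving out 1 library gave 0 to 1. Over all genes these settings called 253 higher and 111 lower, and 249 higher and 83 lower, against 38 and 34. For IL-33, 4 were called by DESeq2 and 8 with the replicate block, and leaving out 1 library gave 1 to 5, all lower with IL-33. These IL-33 counts are not set beside the calls over all genes in the same fits, so they do not show a stronger effect on the members. Leaving out 1 library gave 40 for P28, 37 to 40 for Tau-GFP and 40 for TMRM. Cdk1 in ST2 KO against ST2 Het ran from -0.0786, without the first ST2 KO library, to 0.172, without the second. The cause was not tested. Replicate 1 of both ST2 groups shares the word redo in its barcode names, and nothing says what the other shared numbers mark. The main values have no replicate block: the correlation of same-numbered libraries' deviations ran from -0.06 to 0.37 for IL-33, -0.02 to 0.39 for Tau-GFP and -0.21 to 0.24 for TMRM, and was -0.0136 for P28 and 0.135 for ST2 KO.

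The mean share of microglia-like cells with the members' UMIs (0.158% at P28, 28.8% at P9, 25.5% in ST2 KO, 22.9% in ST2 Het) moved with its definition, in that order of groups. With thinning to 2000 UMIs it was 0.666%, 41.3%, 38.9% and 33.9%. With at least 2 UMIs it was 1.67%, 38.8%, 35.6% and 31.6%, and with at least 5 it was 0.0352%, 20.9%, 18.1% and 16.7%. Without Stmn1, Hmgb2, Cks1b and Cks2 it was 0.0177%, 19.4%, 17.9% and 15.8%. Over all barcodes it was 0.222% at P28 and 26.9% at P9. Unthinned, a setting chosen after seeing the data, it was 1.85%, 60.8%, 68.0% and 62.2%. The libraries left out one at a time in the IL-33, Tau-GFP and TMRM fits, and those left out for endothelial or choroid plexus markers, were also chosen after seeing the data.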

Other observations

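Cultured microglia held less of the mitotic transcripts than sorted ones within the same count table. For 39 of the 40 genes every medium library lay below every Tau-GFP negative library, as for 38.9% of 12138 genes, and the ratio of Tau-GFP negative to medium medians had a median of 6.42 (1.92 to 20.5). Microglia markers summed to 8273 to 9531 CPM in medium, against 57405 to 71025 CPM in Tau-GFP negative libraries. Strain, age, culture and preparation cannot be told apart in this contrast, and no test was made.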
